A study of Mus musculus with 30 samples.

Results

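The comparison described here sets C2C12 cells kept for 4 days in differentiation medium with 5 µM Cr(VI) against untreated C2C12 cells at day 2 of differentiation, that is, against an earlier control stage. Its members were the 3 libraries labelled 5 µM and day 4 and the 3 labelled 0 µM and day 2, which are 6 of the 30 libraries of the series. C2C12 is a mouse myoblast line that stops dividing and fuses into myotubes when serum is withdrawn. Here differentiation was induced with DMEM containing 2% horse serum, and hexavalent chromium was given as potassium chromate in that medium at 0, 2 or 5 µM. Libraries were made from total RNA at days 0, 1, 2 and 4, in 10 groups of 3 labelled as biological replicates, with day 0 at 0 µM only. The labels do not say whether the replicates were separate cultures, so p-values measure the spread between these libraries. Dose and day differ together between the 5 µM day 4 and the control day 2 libraries, and their parts in a difference cannot be told apart from this comparison alone.

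In serum-deprived myoblasts the bHLH factors MyoD and Myf5 act upstream of myogenin and the MEF2 factors, which switch on the genes of fusion, the sarcomere and calcium handling. Embryonic and cardiac isoforms of the sarcomere appear early in this programme and fast and adult isoforms later, while cells leave the cycle. Hexavalent chromium enters cells through anion transporters and is reduced inside them, which produces reactive oxygen species and DNA damage, and cells answer oxidative stress largely through the transcription factor NRF2 and metal load through MTF-1 and the metallothioneins.

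The deposited values are CPM values (read counts divided by library size) with a further scaling by the authors, called scaled CPM here, and 12946 of 48709 genes reached 1 scaled CPM in at least 3 of the 30 libraries and were tested. Total reads recovered from the values were 18.5 to 24.42 M in the 6 libraries. Genes encoded in the mitochondrial genome took 11.64 to 12.78% of reads in the 5 µM day 4 libraries and 7.06 to 8.45% in the control day 2 libraries. All differences below are 5 µM day 4 minus control day 2 on the log2(scaled CPM + 1) scale, which understates the change of low genes, and a gene is called where limma's Benjamini-Hochberg adjusted p over all tested genes is under 0.05. The line's own markers (Myod1, Myf5, Myog, Cdh15 and the muscle intermediate filament gene Des) were above 1 scaled CPM in all 6 libraries. Their sum was lower in the treated libraries, at 2420 to 2970 against 4450 to 4930 scaled CPM, with only Myf5 higher. Of the markers of other cell types, Ptprc was at 0 in all 6 libraries, and the summed leukocyte markers, nearly all of it Cd68 (3.2, 4.83 and 4.9 against 0.575, 0.914 and 0.167), reached 3.25 to 5.08 scaled CPM against 0.167 to 0.914. Summed endothelial markers were at most 0.701 and 1.78 scaled CPM. The fibroblast sum was lower in the treated libraries, at 25.1 to 29.4 against 39.2 to 44 scaled CPM. Cd34 (21.2, 18.2 and 22 against 32.9, 31.9 and 28.4) was the main part of it. Lum was at 0.188, 0 and 0 against 3.49, 3.43 and 4.1, and Dpt was lower too. Pdgfra overlapped between the groups, at 4.75, 6.42 and 7.06 against 5.79, 5.62 and 5.56, and Thy1 was at 0.0418 or less. Cd34 is also in the satellite cell list below and Lum in a matrix list. The osteoblast sum was lower too, at 11.2 to 13.3 against 15.1 to 19.7 scaled CPM, nearly all of it Runx2. The adipocyte sum was 35.3 to 46.6 against 17.4 to 23 scaled CPM, with Adipoq at 0.338 or less and only Lpl, which muscle also expresses, above 1. Their part in the differences below was not tested.

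The 5 µM day 4 libraries differed from the control day 2 stage across much of the transcriptome. Of the tested genes, 6882 were called, or 53.2%, with 3311 higher (25.6%) and 3571 lower (27.6%). These shares are the background for the member counts of every gene list below. Differences of 2-fold or more leaned to lower genes, with 1703 lower (13.2%) and 871 higher (6.73%). For 7049 genes (54.4%) the 95% interval of the difference lay within 2-fold in either direction, and 4372 of these were also not called. The median difference of all tested genes was -0.02, so the list medians given below start from a base near 0.

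Against each of the other control stages more genes were called. The 5 µM day 4 libraries differed in 8183 genes (63.2%) from control day 0, in 7512 (58%) from control day 1 and in 7228 (55.8%) from control day 4, and the root mean square of the log2 differences was 1.31, 0.99 and 0.93 against these stages and 0.89 against day 2. These 4 comparisons share the 5 µM day 4 libraries. Control day 4 itself differed from control day 2 in 3333 genes (25.7%), with a root mean square of 0.55. The controls nearest to 5 µM day 4 by these measures were therefore the day 2 libraries, at a distance larger than that between control days 2 and 4. Many of the differences lay outside everything seen in the untreated cells: 1712 called genes (13.2%) were higher in all 3 of the 5 µM day 4 libraries than in each of the 12 control libraries of days 0 to 4, and 1478 (11.4%) were lower than in each of them.

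**Figure D1:**
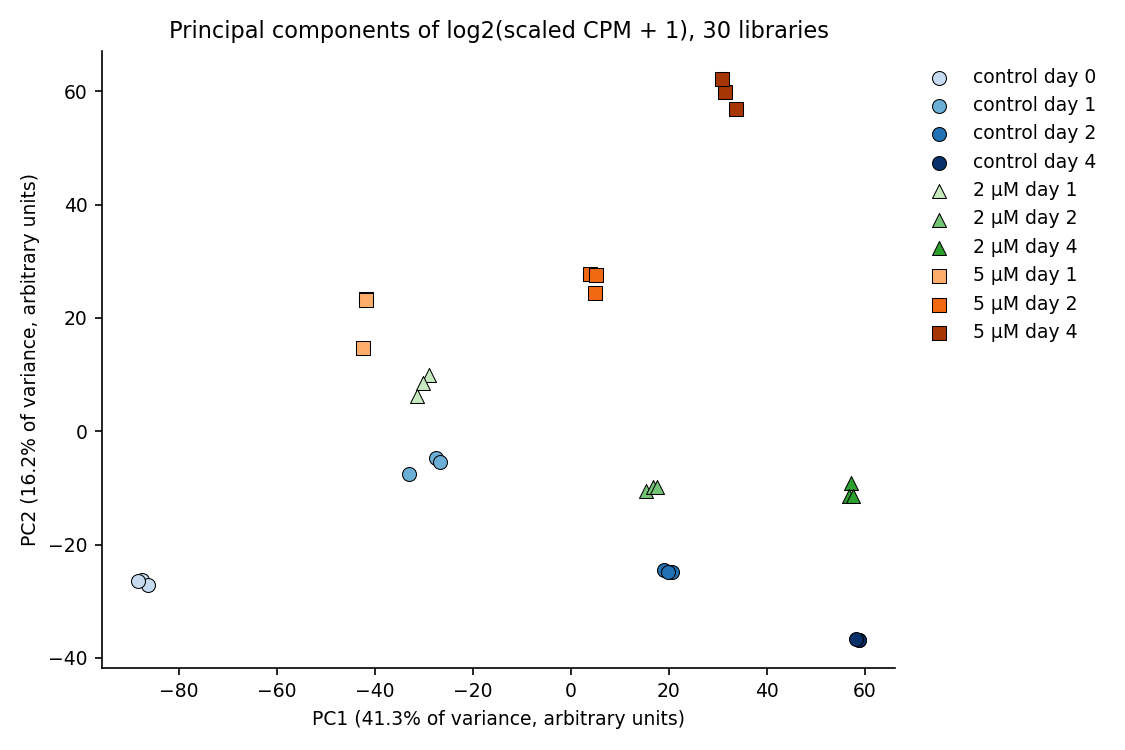
Principal components of log2(scaled CPM + 1) in 30 libraries; each point is 1 library, coloured by group, and the axes are in arbitrary units. On the first component the 5 µM day 4 libraries (30.8 to 33.7) lie between control day 2 (19.1 to 20.6) and control day 4 (58.3 to 58.9), and on the second they lie at 56.8 to 62.2, away from control day 2 (-24.9 to -24.5).

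The principal components show the same layout. On the first component, which separates the control days in order and holds 41.3% of the variance, the 5 µM day 4 libraries lay between control days 2 and 4. On the second, with 16.2% of the variance, they lay farther from the controls than any other group, and the 5 µM day 2 libraries were at 24.4 to 27.8.

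Myogenic regulators were mostly lower than at control day 2. In bulk RNA, fewer differentiating cells and less RNA per cell cannot be told apart. Of 14 tested, 9 were lower, 2 higher and 3 not called, with a median of -0.42. Myog, which encodes myogenin, was at 220, 263 and 216 scaled CPM at 5 µM day 4 against 1253, 1190 and 1245 at control day 2, a log2 difference of -2.40 (SE 0.13, adjusted p 4.5e-17). The groups did not overlap, and the treated libraries were also below the control day 1 mean of 419. The share of all tested genes whose groups did not overlap was not counted, here or for the genes below. Myod1 was at 68.4, 57.1 and 62.6 against 163, 172 and 199 scaled CPM, lower by a log2 difference of -1.49 (SE 0.1) and below each of the 12 control libraries. Myf5, the regulator of undifferentiated myoblasts, went the other way, with 97.1, 86.8 and 98.3 against 40.1, 46.5 and 43 scaled CPM (1.11, SE 0.12, adjusted p 1.4e-09) and above each of the 12 control libraries. The other higher member was Myf6, which encodes the late factor MRF4, named here after its value was seen (1.84). Pax7, the satellite cell factor, was at 8.14, 6.18 and 7.18 against 35.5, 38 and 44.4 scaled CPM, and lower than in all controls.

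Some partners of these factors were within 2-fold of control day 2 and not called. Mef2c was at 131, 107 and 122 scaled CPM against 99.3, 115 and 99.5, with overlapping groups and a difference of 0.20 whose interval ran from -0.10 to 0.49. Its control mean went from 11.8 at day 1 to 752 at day 4. Mef2d had a difference of 0.05 (interval -0.18 to 0.27) and Six4, a homeobox factor of muscle, of 0.17 (interval -0.10 to 0.44).

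Genes of cell fusion were lower almost throughout: 13 of 15 were lower and none higher, with a median of -1.16, and 7 were below all 12 control libraries. The myomixer gene, listed as Gm7325, was at 14.5, 18.7 and 14.8 scaled CPM against 128, 130 and 154, a log2 difference of -3.03 (SE 0.19, adjusted p 3e-15). The myomaker gene, listed as Tmem8c, was at 493, 491 and 488 against 727, 755 and 786 scaled CPM, a smaller difference of -0.62 (SE 0.12) within 2-fold. Both encode membrane proteins needed for myoblast fusion, and the treated libraries were below the control day 2 libraries for each. Adam12, a membrane metalloprotease of fusing myoblasts, was at 0, 0 and 0.0584 scaled CPM against 11.6, 9.05 and 7.57. Dysf, the membrane repair gene, was lower at -1.93 and Dock1, a Rac activator, at -1.89. Ehd2, a membrane-trafficking ATPase gene, was not called, with 370, 351 and 325 against 340, 328 and 335 scaled CPM.

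Embryonic and slow sarcomere genes lay below control day 2, with 10 of 13 lower, none higher and a median of -1.16. Myh3, the embryonic myosin heavy chain, was at 265, 195 and 166 scaled CPM against 1075, 1174 and 996 (-2.39, SE 0.16, adjusted p 4.1e-14). Actc1, cardiac alpha-actin, was at 499, 497 and 502 against 1751, 1899 and 1743 scaled CPM (-1.84, SE 0.14). Mybph, a myosin-binding protein gene, was at 383, 393 and 333 against 1143, 1116 and 1206 scaled CPM. In each of these 3 genes every treated library was under every control day 2 library and above the control day 1 mean, which was 104 for Myh3, 358 for Actc1 and 110 for Mybph. Myh8, the perinatal myosin, was not called, at 97.3, 65.6 and 63.5 against 58, 65.3 and 47.1 scaled CPM (0.39, interval -0.06 to 0.84), but was called higher with a pseudocount of 5 (adjusted p 0.043). Myl2, the slow myosin light chain, named after its value was seen, was not called (0.44) but was called higher under quantile normalization and without replicate 3 of 5 µM day 4.

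The fast and adult sarcomere list split. Of 39 members 24 were lower, 8 higher and 7 not called, and its median was -0.59. Skeletal alpha-actin, Acta1, was at 2194, 2098 and 1943 scaled CPM against 3790, 3900 and 4108 (-0.92, SE 0.09). Fast troponin T, Tnnt3, was at 402, 367 and 379 against 1003, 960 and 998 scaled CPM (-1.37, SE 0.1). The Z-disc gene Myoz2 (-1.90) and the M-band gene Myom1 (-1.80) were among the lowest of the list. Lmod3, a leiomodin gene of the thin filament, was not called, at 131, 111 and 103 against 118, 121 and 109 scaled CPM.

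Several late fast-fibre genes were above control day 2 in the same libraries. Myh1, the fast IIx myosin, was at 327, 256 and 225 scaled CPM against 93.7, 104 and 110 (1.37, SE 0.23, adjusted p 4.7e-06). Myh4, the fast IIb myosin, was at 32.3, 18.2 and 17 against 2.88, 2.15 and 2.76 scaled CPM (2.66, SE 0.28). Tcap, the telethonin gene of the Z-disc, was at 31.9, 20.8 and 23.8 against 3.74, 2.51 and 5.35 scaled CPM (2.46, SE 0.29). The groups did not overlap in any of the 3, with no share over all tested genes to set beside it. The treated means were still below control day 4, where the mean was 978 for Myh1, 61.2 for Myh4 and 67.6 for Tcap. The other 5 higher members, named after their values were seen, were Myot (2.35), Myoz1 (1.58), Mylk2 (1.51), Mybpc2 (0.84) and Myl1 (0.79). With edgeR 6 members of the list were called higher, without Myoz1 and Mybpc2, and with DESeq2 7, without Mybpc2. The myosin heavy chain genes are close copies of each other, the counting rule is not given in the sources used here, and reads shared among them are uncertain.

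**Figure D2:**
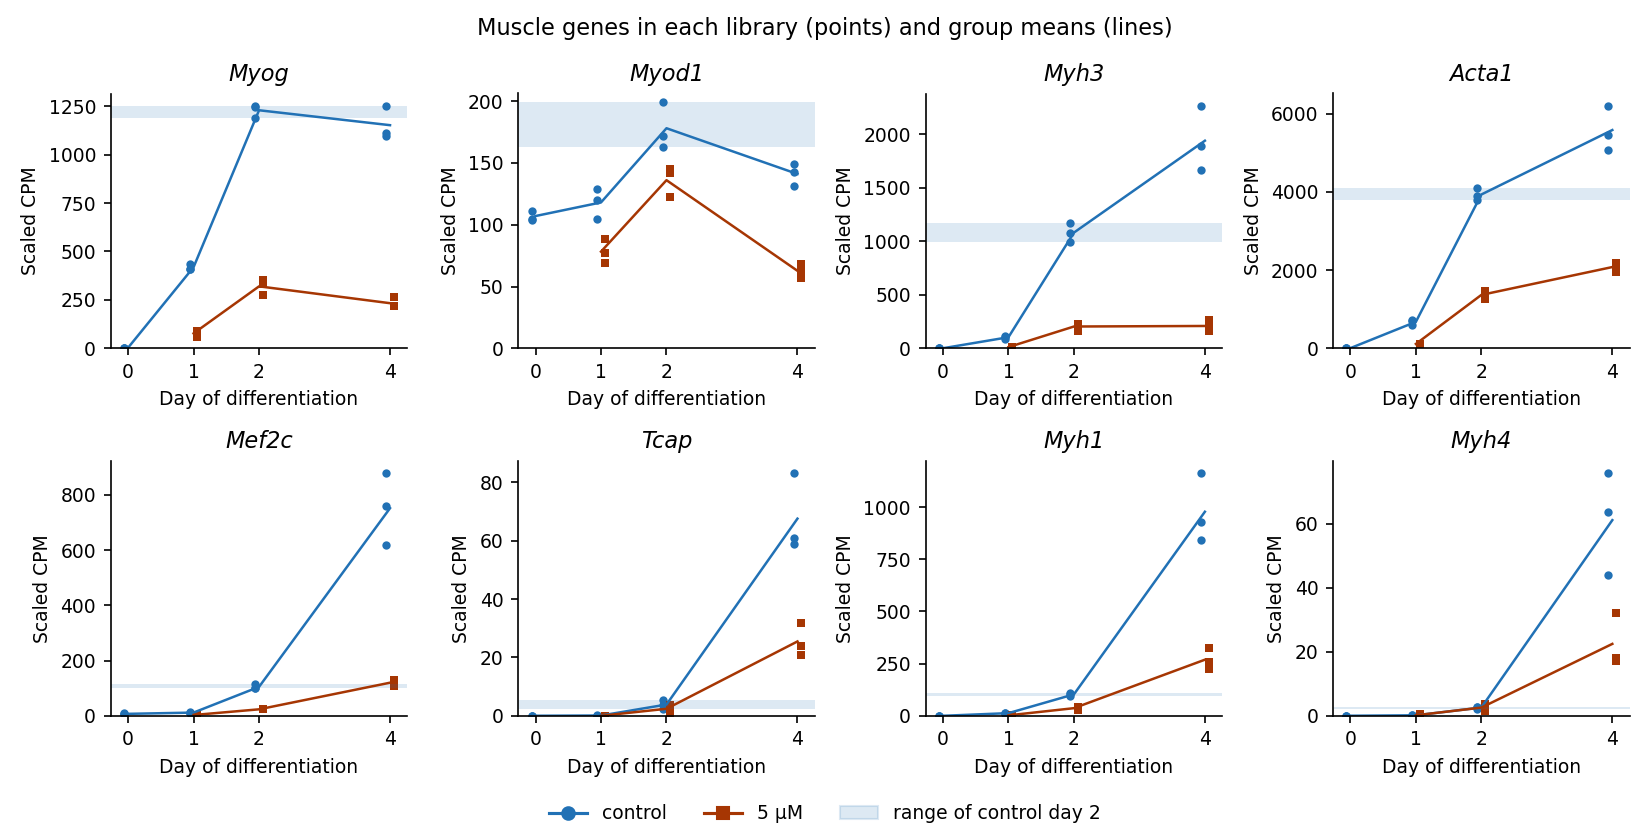
Scaled CPM (linear axes from 0) of 8 muscle genes by day of differentiation; points are libraries, lines join group means, blue is control and brown is 5 µM, and the band is the range of the 3 control day 2 libraries. At day 4 the 5 µM points lie under the band for Myog, Myod1, Myh3 and Acta1, reach it for Mef2c, and lie above it for Tcap, Myh1 and Myh4.

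The plot of muscle genes by day shows the opposed pair Myh3 and Myh1. At 5 µM the mean of Myh3 was 204 at day 2 and 209 at day 4, while the mean of Myh1 was 36.7 at day 2 and 269 at day 4. In control cells over the same interval the change was 0.83 for Myh3 and 3.23 for Myh1 on the log2 scale. The day 2 to day 4 changes share libraries with the comparison of 5 µM day 4 and control day 2, and stand here as values only.

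Genes of calcium handling and the triad were lower in 10 of 17 cases, with 1 higher, 6 not called and a median of -0.64. Casq2, the cardiac calsequestrin, was at 414, 368 and 401 scaled CPM against 1194, 1332 and 1208 (-1.66, SE 0.14). Ryr1, the calcium release channel, was at 63.4, 47.5 and 39 against 149, 158 and 163 scaled CPM (-1.65, SE 0.23). The calcium channel subunit Cacna2d1 (-2.04) was lower than in all 12 control libraries. Atp2a1, the fast SERCA pump, was not called, at 754, 650 and 598 against 659, 661 and 693 scaled CPM (-0.01, interval -0.24 to 0.21). The higher member was Trdn, which encodes triadin (1.06).

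At the neuromuscular junction 9 of 12 genes were lower and 1 higher, with a median of -0.76. Agrn, the agrin gene, was at 5.13, 3.52 and 3.04 scaled CPM against 32.4, 25.8 and 31.6 (-2.68, SE 0.21) and below all controls. The acetylcholine receptor subunits differed in size of change: Chrnd (-1.38) and Chrng (-1.24) were more than 2-fold lower, while Chrna1, at 1421, 1399 and 1441 against 1751, 1745 and 1721 scaled CPM, was lower by -0.29 and within 2-fold. The higher member, Ache, had means of 2.36 and 0.25 scaled CPM, and was not called with edgeR or DESeq2.

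Muscle energy genes had the least shifted median of the muscle lists, at 0.06. Of 19 tested, 6 were higher, 4 lower and 9 not called, near the background of 25.6% higher and 27.6% lower among all tested genes. Under plain CPM, scaled to library size only, the sign of that median turned, to -0.03. Ckm, muscle creatine kinase, was at 349, 330 and 313 scaled CPM against 344, 392 and 412 (-0.21, interval -0.46 to 0.05) and was not called, but it was called lower under plain CPM (adjusted p 0.042), quantile normalization (0.019) and a fit of the 6 libraries alone (0.031). Ppargc1a, the coactivator of mitochondrial genes, was at 10.4, 10.2 and 11.1 against 3.49, 3.34 and 2.43 scaled CPM (1.51, SE 0.37). Pgam2, muscle phosphoglycerate mutase, was at 121, 107 and 98.5 against 49.3, 54.4 and 60.7 scaled CPM (0.98, adjusted p 0.00085, and 0.072 with a pseudocount of 0.1). Gys1, muscle glycogen synthase, was lower, at 35.6, 25.6 and 28.9 against 111, 118 and 108 scaled CPM (-1.88, SE 0.13). Eno3, muscle enolase, was lower at -1.08.

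The control time course gives each muscle gene a position. Of 129 tested genes in the 7 muscle lists, 97 had control means that rose at every step from day 0 to day 4. The 5 µM day 4 mean lay between control days 1 and 2 for 64 of these, between days 2 and 4 for 19, between days 0 and 1 for 6, below day 0 for 5 and above day 4 for 3. For embryonic and slow sarcomere genes 10 of 11 lay between days 1 and 2, and for calcium handling 14 of 17. In the fast and adult sarcomere list 25 of 34 lay between days 1 and 2 and 7 between days 2 and 4, among them Myh1, Myh2, Myh4, Tcap, Mybpc2, Myl1 and Ttn. Among 16 energy genes 6 lay between days 1 and 2 and 6 between days 2 and 4. This count uses group means and was added after the data were seen.

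**Figure D3:**
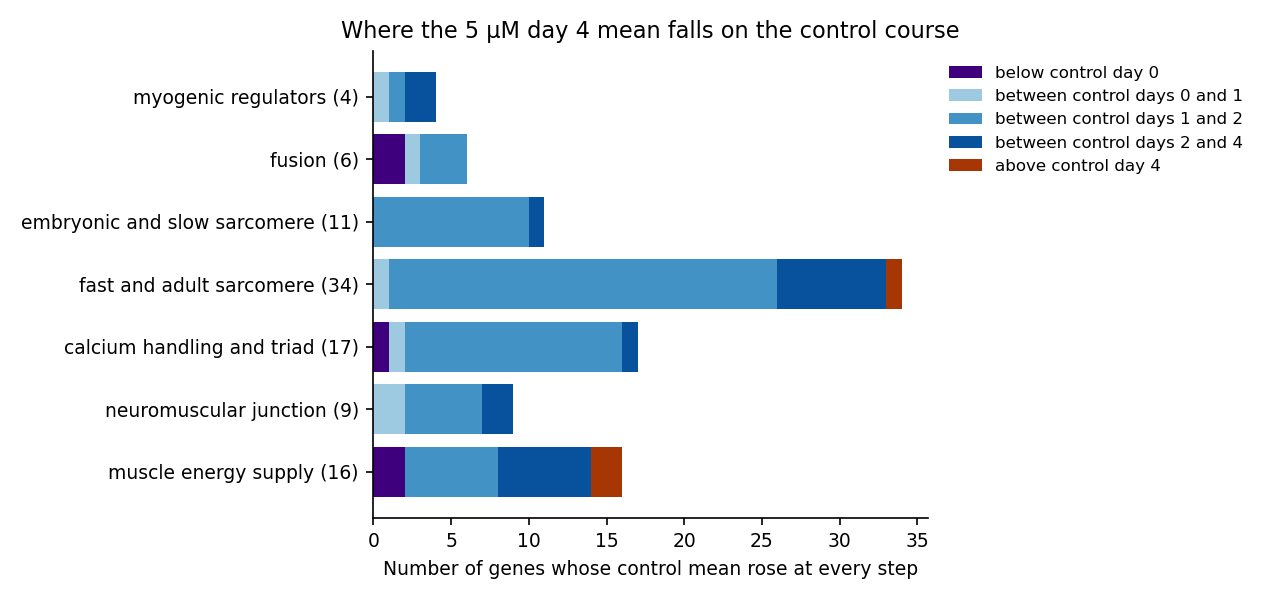
Stacked counts of genes (horizontal axis, number of genes) in 7 muscle lists whose control mean rose at every step from day 0 to day 4, by where the 5 µM day 4 mean falls on that course; the number of such genes is in brackets. The interval between control days 1 and 2 holds 10 of 11 embryonic and slow sarcomere genes and 25 of 34 fast and adult sarcomere genes.

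Genes that change with stage in control cells gave a wider view. Lists were defined on the control day 0, 1 and 4 libraries, which are not in the comparison. Of 1172 genes that rose 2-fold or more from control day 1 to day 4, 39.8% were within 2-fold of control day 2, 34% were called lower and 21.2% higher, with a median of -0.19 and quartiles of -0.80 and 0.43. Of 1120 genes that fell over the same interval, 42.9% were within 2-fold, 38.7% were lower and 20.7% higher, with a median of -0.27. Genes that rose from day 0 to day 1 stood lower: of 1310, 53.4% were lower and 13.1% higher, with a median of -0.59. Of 1068 genes that fell from day 0 to day 1, 40.4% were lower and 20.7% higher, with a median of -0.25, and 285 of them were below each of the 12 control libraries. With a 4-fold bound in place of 2-fold this last list had 209 genes, of which 60.8% were lower and 14.4% higher, with a median of -1.42. The background for these shares is 25.6% higher, 27.6% lower and 54.4% within 2-fold among all tested genes.

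The mitosis genes lay below every control stage. All 30 mitosis genes were lower than at control day 2, by -1.27 to -4.82 with a median of -3.24, and all 30 were below each of the 12 control libraries, against a background of 11.4%. Top2a, the DNA topoisomerase of dividing cells, was at 5.32, 4.68 and 3.21 scaled CPM against 157, 153 and 139 (-4.82, SE 0.2, adjusted p 1.6e-19). Ccna2, cyclin A, was at 2.54, 2.66 and 1.98 against 77.5, 84 and 72 scaled CPM (-4.54, SE 0.14). Mki67, the Ki-67 antigen gene, was at 0.141, 0.0483 and 0 against 6.08, 11.5 and 9.7 scaled CPM. Control cells kept more of these transcripts at day 4, with means of 92.8 for Top2a, 56.3 for Ccna2 and 4.97 for Mki67. The list was already low at 5 µM day 2, where the means were 20.5, 10.7 and 1.53.

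Mitosis genes share promoter elements known as the cell cycle homology region and the CCAAT box, bound by the DREAM and MuvB complexes and by NF-Y. RefSeq promoter windows on GRCm38.p6, which run from 250 bases before to 50 bases after a gene's start, were matched to 26 of the 30 genes in 27 windows. The letters TTTGAA or TTCGAA, on either strand, were in 81.5% of these windows and in 19.2% of all 32851 windows. CCAAT on either strand was in 81.5% of them and in 37.4% of all. TTCGAA reads the same on both strands and was counted once, matches of different motifs may overlap, a match is a description of the window and not a bound site, and the build of the deposited values is not given in the sources used here. The windows of Top2a (chr11:99024140-99024439, minus strand) and Hmmr (chr11:40733388-40733687, minus strand) are printed because these were the mitosis genes with the largest difference among those with 1 window and a match, with the TTTGAA or TTCGAA matches in capitals.
Top2a: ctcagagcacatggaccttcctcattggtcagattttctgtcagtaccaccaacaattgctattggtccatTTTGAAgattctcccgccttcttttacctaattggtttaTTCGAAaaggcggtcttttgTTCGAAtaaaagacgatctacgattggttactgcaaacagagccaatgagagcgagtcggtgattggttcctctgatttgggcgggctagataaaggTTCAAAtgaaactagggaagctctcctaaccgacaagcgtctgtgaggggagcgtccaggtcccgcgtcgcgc
Hmmr: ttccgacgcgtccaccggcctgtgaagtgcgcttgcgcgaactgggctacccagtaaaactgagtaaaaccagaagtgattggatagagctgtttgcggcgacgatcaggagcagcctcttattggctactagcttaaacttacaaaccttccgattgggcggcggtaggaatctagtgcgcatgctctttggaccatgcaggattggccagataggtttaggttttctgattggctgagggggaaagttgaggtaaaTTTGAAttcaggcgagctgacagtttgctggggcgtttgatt
Hmmr, a spindle-associated hyaluronan receptor, was at 0.659, 0.869 and 0.701 scaled CPM against 30.5, 26.2 and 30.4. The Top2a window holds 4 matches and the Hmmr window 1.

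Replication genes followed with a wider spread. Of 30 tested, 26 were lower, none higher and 23 below all controls, with a median of -1.59. Tk1, thymidine kinase, was at 0.424, 0.821 and 1.34 scaled CPM against 24.6, 34.1 and 25.8 (-3.98, SE 0.25). Uhrf1, which maintains DNA methylation, was at 3.95, 3.09 and 2.28 against 41.1, 40.8 and 51.5 scaled CPM. The polymerase genes Pola1 (-3.01) and Pole (-2.85) were lower as well. Cdt1, a replication licensing gene, was not called, at 11.9, 11.6 and 11.8 against 10.1, 12.2 and 14.1 scaled CPM, and neither was Slbp, the histone mRNA binding protein gene.

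DNA repair genes were lower in 21 of 32 cases and higher in 1, with 16 below all controls and a median of -0.97. Fancd2, of the Fanconi anaemia crosslink pathway, was at 0.0471, 0 and 0 scaled CPM against 8.18, 9.92 and 9.24. Brca1, of homologous recombination, was at 0.424, 0.338 and 0.642 against 9.04, 9.28 and 9.74 scaled CPM (-2.82, SE 0.34). The glycosylase gene Neil3 was at 0 in all 3 treated libraries and at 5.83, 4.66 and 4.98 scaled CPM in the controls. Xrcc1, a scaffold of single-strand break repair, was not called, at 24, 19.6 and 22.9 against 23.4, 21 and 23.8 scaled CPM. The higher member was Lig4, the end-joining ligase (0.73), named after its value was seen.

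A list of cell-cycle brakes, D cyclins and their kinases, which hold back or drive entry into the cycle, had 9 of 14 tested members lower, 1 higher (Cdkn1b, which encodes the inhibitor p27, at 0.53) and a median of -0.67. Among the brakes in it Cdkn1c, Cdkn2c, Rb1 and Rbl1 were lower, and among the drivers Ccnd1, Ccnd3, Cdk2, Cdk4 and Cdk6. Cdkn1a, which encodes p21, was not called and was alike within 2-fold: 1677, 1847 and 1749 against 1746, 1787 and 1879 scaled CPM, a difference of -0.04 with an interval from -0.22 to 0.14. Its control mean was 685 at day 1 and 2899 at day 4. Cdkn1c, which encodes p57, was at 3.67, 5.5 and 7.88 against 25.6, 18 and 23.8 scaled CPM (-1.84, SE 0.25), and control day 4 cells reached a mean of 96.3. Ccnd3, the cyclin D of differentiating muscle, was at 283, 301 and 270 against 562, 562 and 593 scaled CPM. Its partner Cdk4 was at 137, 144 and 127 against 288, 283 and 300 scaled CPM and below all controls. Ccnd1, cyclin D1, was lower by -0.38.

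Extracellular matrix genes were far below control day 2. The summed fibroblast markers given above (25.1 to 29.4 against 39.2 to 44 scaled CPM) were lower in the same libraries. Among those markers Pdgfra overlapped between the groups, and Lum is also a member of a matrix list below. Any part of the marker sum in the matrix differences was not tested. Of 28 genes for collagens and their modifiers 25 were lower and none higher, 20 were below all 12 control libraries, and the median was -1.96. Col6a1, a subunit of the collagen VI that surrounds muscle fibres, was at 5.41, 7.48 and 3.85 scaled CPM against 184, 180 and 189 (-4.85, SE 0.18, adjusted p 2.8e-21). Col6a2, its partner chain, was at 1.65, 2.08 and 3.09 against 62, 58.3 and 62.1 scaled CPM. Col1a1, of fibrillar collagen I, was at 7.96, 6.66 and 5.2 against 80, 80.2 and 96.2 scaled CPM (-3.52, SE 0.39), and the control mean was 265 at day 4. The collagen hydroxylase gene P4ha2 was not called, at 28.2, 32.2 and 32.5 against 35.7, 37.6 and 36.6 scaled CPM.

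Matrix glycoproteins and proteoglycans were lower in 19 of 27 cases and higher in 2 (Dcn at 0.75 and Thbs1 at 0.30, named after their values were seen), with a median of -1.16. The call of Dcn was lost with edgeR, with DESeq2, and whenever 1 of the 6 libraries was left out. The higher count of the list was also 1 with no filter on low values, a pseudocount of 0.1 and a robust variance estimate. It was 1 as well under plain CPM, CPM of reads outside mitochondrial genes and quantile normalization. Fbn1, the fibrillin of elastic microfibrils, was at 45.8, 30.7 and 29.2 scaled CPM against 354, 340 and 328 (-3.27, SE 0.12). Fibronectin, Fn1, was at 807, 652 and 595 against 3323, 3375 and 3485 scaled CPM (-2.32, SE 0.12). Some members did not follow. Mgp, matrix Gla protein, was at 159, 168 and 169 against 164, 166 and 164 scaled CPM (0.00, interval -0.25 to 0.25), and Ogn, osteoglycin, was at 702, 651 and 696 against 751, 861 and 634. Of the matrix proteases and inhibitors 16 of 21 were lower, with a median of -1.17, and Adamts4 was at 14.1, 10.6 and 13.4 against 115, 111 and 111 scaled CPM. Mmp3, the stromelysin gene, went the other way, at 11.3, 14.1 and 14.4 against 0.164, 0 and 0.0836 scaled CPM, and no control library of any stage reached its treated level.

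Smooth muscle genes and targets of SRF and YAP were lower in 12 of 18 cases and higher in 3 (Tagln2 at 0.95, Ctgf at 0.93 and Amotl2 at 0.56), with a median of -0.85. Tagln, which encodes the actin-binding protein SM22, was at 6.54, 6.61 and 4.38 scaled CPM against 108, 102 and 122 (-4.04, SE 0.15, adjusted p 2.3e-21), below all controls. Actg2, smooth muscle gamma-actin, was at 1.98, 0 and 2.74 against 26.5, 22.1 and 31.4 scaled CPM. Srf itself, the transcription factor, was not called, at 66.8, 76.1 and 68.9 against 57.1, 59.6 and 65.5 scaled CPM.

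**Figure D4:**
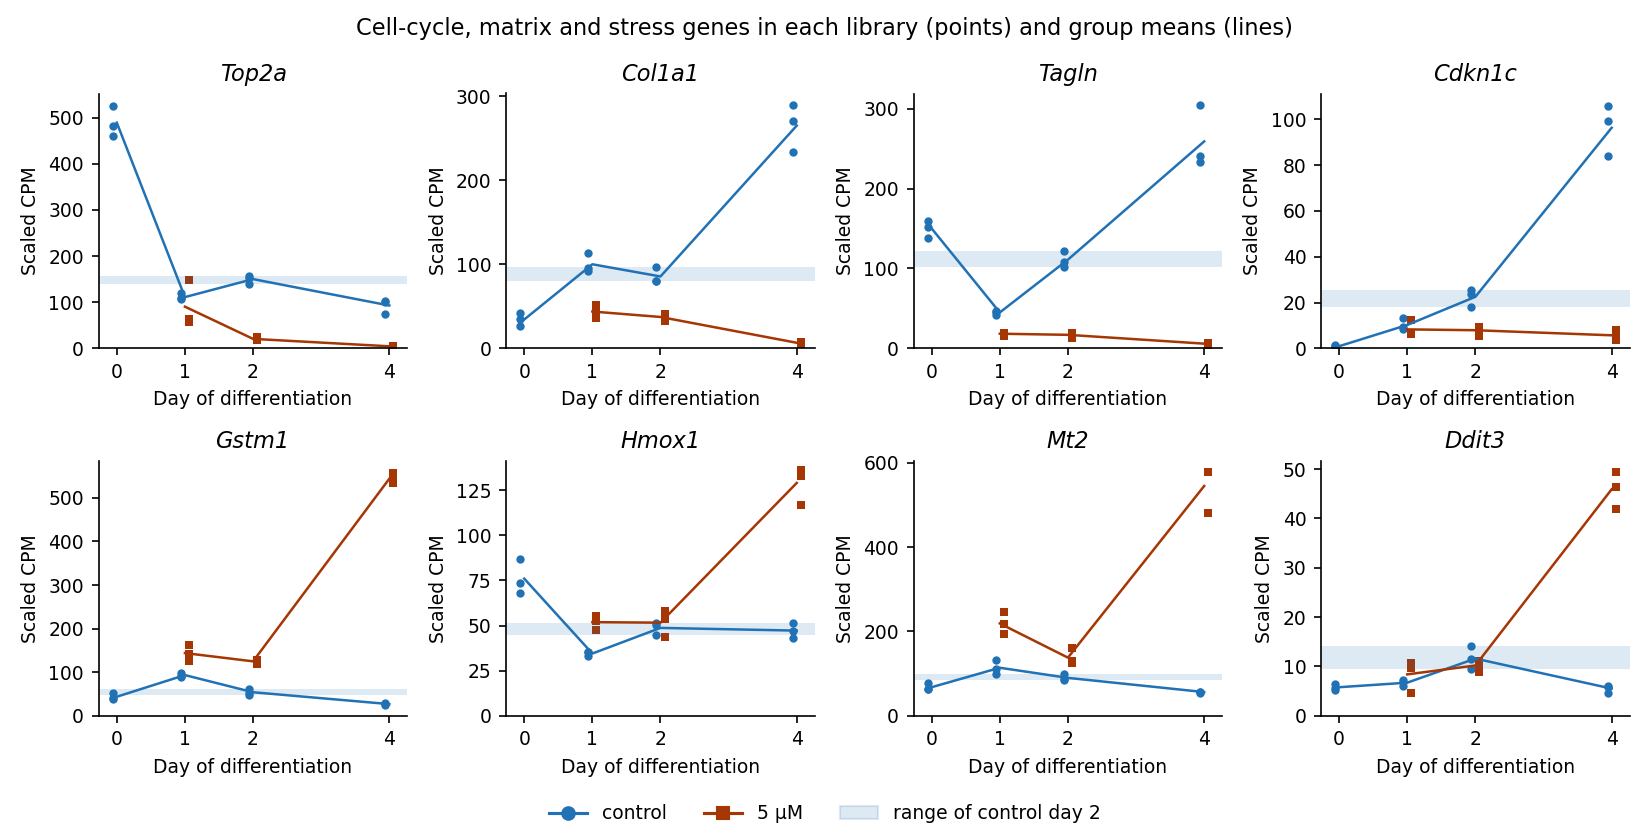
Scaled CPM (linear axes from 0) of 8 cell-cycle, matrix and stress genes by day; points are libraries, lines join group means, blue is control, brown is 5 µM, and the band is the range of control day 2. At day 4 the 5 µM points of Top2a, Col1a1, Tagln and Cdkn1c lie under the band, and those of Gstm1, Hmox1, Mt2 and Ddit3 lie above it.

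The targets of NRF2 had the highest median of the 33 lists. Of 29 NRF2 targets 23 were higher and 3 lower, 20 were at least 2-fold higher, 14 were above all 12 control libraries (background 13.2%), and the median was 1.38. The size depended on the control stage: the list median was 0.33 against control day 0, 0.93 against day 1 and 1.71 against day 4. Gstm1, a glutathione S-transferase, was at 558, 534 and 541 scaled CPM against 48.7, 52.7 and 61 (3.31, SE 0.11, adjusted p 1.5e-22). Aldh3a1, an aldehyde dehydrogenase, was at 217, 229 and 202 against 11.9, 9.42 and 11.1 scaled CPM (4.20, SE 0.16). Hmox1, heme oxygenase, was at 117, 136 and 133 against 51.2, 44.5 and 50.4 scaled CPM (1.38, SE 0.16). Nqo1, the quinone reductase, was at 59.7, 49.1 and 55.2 against 7.39, 10.3 and 9.74 scaled CPM (2.46, SE 0.19), but its control day 0 mean of 151 was higher still. Sqstm1, the autophagy adaptor p62, was at 2635, 3087 and 2855 against 494, 488 and 515 scaled CPM. The groups did not overlap in these 5 genes, but the share of all tested genes without overlap was not counted. The lower members were Abcc1 (-0.73), G6pdx (-0.50) and Idh1 (-0.35), named after their values were seen, and Ugdh was not called (0.10, interval -0.07 to 0.26).

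The RefSeq windows of 24 of the 31 listed NRF2 targets, 33 windows in all, were searched for the core of the antioxidant response element, TGACNNNGC or TGAGNNNGC on either strand. It was in 51.5% of them and in 27.8% of all windows. The windows of Osgin1 (chr8:119436897-119437196, plus strand) and Gclm (chr3:122245307-122245606, plus strand), which had the largest differences among the called targets with 1 window and a match, each hold 1 match, in capitals.
Osgin1: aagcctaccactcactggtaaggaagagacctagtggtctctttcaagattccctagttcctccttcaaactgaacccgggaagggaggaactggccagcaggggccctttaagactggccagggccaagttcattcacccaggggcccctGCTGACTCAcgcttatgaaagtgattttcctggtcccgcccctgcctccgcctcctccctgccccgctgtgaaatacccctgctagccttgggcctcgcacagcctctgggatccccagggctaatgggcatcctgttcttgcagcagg
Gclm: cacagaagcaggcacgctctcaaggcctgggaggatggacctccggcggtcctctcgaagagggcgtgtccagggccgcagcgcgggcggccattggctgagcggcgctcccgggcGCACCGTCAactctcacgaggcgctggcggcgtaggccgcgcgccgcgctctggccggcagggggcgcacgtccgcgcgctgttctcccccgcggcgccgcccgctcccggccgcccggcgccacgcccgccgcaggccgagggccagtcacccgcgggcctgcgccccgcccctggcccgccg
Osgin1, an oxidative stress-induced growth inhibitor gene, was at 38.5, 54.8 and 46.4 scaled CPM against 6.98, 5.21 and 9.79 (2.54, SE 0.28). Gclm, the regulatory subunit of glutathione synthesis, had means of 107 and 23.6 scaled CPM (2.15, SE 0.16).

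Among 15 metal-handling genes 8 were higher and 2 lower, with a median of 0.45. The metallothioneins, which bind zinc, copper and cadmium, led the list. Mt2 was at 480, 578 and 577 scaled CPM against 83.9, 86.7 and 99.5 (2.58, SE 0.33, adjusted p 6.2e-08), and Mt1 at 339, 344 and 323 against 115, 103 and 141 (1.49, SE 0.26). Every treated library was above each of the 12 control libraries in both, and the 2 genes are close copies, so reads shared between them are uncertain. Slc30a1, the zinc exporter, was at 52.9, 61.7 and 72.8 against 21.9, 24.7 and 22.2 scaled CPM. Ftl1, ferritin light chain, was higher at 1.31 but below its control day 0 mean of 4458 scaled CPM. Slc40a1, the iron exporter, was not called (-0.05, interval -0.50 to 0.40).

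The core of the metal response element, TGCACNC or TGCGCNC on either strand, was in 33.3% of 21 windows of 14 metal-handling genes and in 25.7% of all windows. The windows of Mt2 (chr8:94172368-94172667, plus strand) and Mt1 (chr8:94178839-94179138, plus strand) hold 4 and 3 matches, in capitals.
Mt2: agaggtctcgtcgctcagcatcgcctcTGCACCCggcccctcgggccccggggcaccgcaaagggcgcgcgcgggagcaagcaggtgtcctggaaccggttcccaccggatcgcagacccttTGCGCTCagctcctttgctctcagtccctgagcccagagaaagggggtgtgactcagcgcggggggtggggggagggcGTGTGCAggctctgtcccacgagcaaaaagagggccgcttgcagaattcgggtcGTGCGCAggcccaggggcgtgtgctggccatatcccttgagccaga
Mt1: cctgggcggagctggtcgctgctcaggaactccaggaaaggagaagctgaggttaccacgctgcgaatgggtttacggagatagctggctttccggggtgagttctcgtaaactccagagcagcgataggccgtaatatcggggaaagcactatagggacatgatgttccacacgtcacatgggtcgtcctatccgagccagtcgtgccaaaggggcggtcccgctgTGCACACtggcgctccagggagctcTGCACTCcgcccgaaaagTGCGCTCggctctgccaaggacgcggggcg
The 2 genes are neighbours on the chromosome and were the members of the list with the largest differences.

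Of 31 p53 targets 15 were higher, 5 lower and 11 not called, with a median of 0.60 and 9 above all controls. The lower count was 3 without replicate 3 of 5 µM day 4 and also 3 without replicate 3 of control day 2. Against control day 4 the list median was 0.21, and the control change from day 2 to day 4 had a median of 0.01. Mdm2, the ubiquitin ligase of p53, was at 192, 189 and 199 scaled CPM against 90, 86.6 and 82.6 (1.15, SE 0.1, adjusted p 1e-11). In control cells Mdm2 also rose from day 2 to day 4, by 0.63 on the log2 scale. Trp53inp1, a p53-induced nuclear protein gene, was at 161, 160 and 186 against 59.7, 54.2 and 39.4 scaled CPM. Perp, a desmosomal p53 effector, was at 9.13, 6.42 and 8.35 against 0, 0.366 and 0.167 scaled CPM. Pmaip1, the BH3-only gene NOXA, was lower, at 70, 58.1 and 64.9 against 165, 174 and 157 scaled CPM (-1.35, SE 0.12). Bax was not called, at 50.6, 79.1 and 68.1 against 63.9, 55.4 and 63.7 scaled CPM, and Cdkn1a is given above.

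Heat shock genes were higher in 13 of 16 cases and lower in 1, with a median of 0.57, mostly within 2-fold. The lower count was 2 under plain CPM and without replicate 2 of 5 µM day 4. Hspa1b, an inducible HSP70, was at 159, 157 and 144 scaled CPM against 32.9, 25.7 and 31.5 (2.32, SE 0.16), and Hspa1a at 14.7, 16.3 and 14.4 against 5.96, 4.16 and 5.77, though the 2 genes are near-identical copies and the split of reads is uncertain. Bag3, a cochaperone of muscle, was at 170, 156 and 162 against 78.9, 78.2 and 89.2 scaled CPM. The constitutive Hspa8 was not called, at 2578, 2566 and 2606 against 2524, 2554 and 2422 scaled CPM, and was called higher under quantile normalization (0.14, adjusted p 0.037).

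Chaperones of the endoplasmic reticulum went the opposite way: 13 of 18 were lower, none higher, 10 were below all controls, and the median was -0.39. Hspa5, which encodes BiP, was at 525, 512 and 570 scaled CPM against 839, 880 and 806 (-0.65, SE 0.07, adjusted p 8.8e-10). The disulfide isomerase gene Pdia4 was at 60.2, 57.5 and 50.1 against 178, 180 and 165 scaled CPM. Xbp1, a transcription factor of the unfolded protein response, was lower at -1.10. Canx, calnexin, was at 819, 816 and 809 against 823, 817 and 808 scaled CPM and was not called.

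Genes linked to the transcription factor ATF4 went both ways. Of 26 tested, 14 were lower and 8 higher, with a median of -0.47. Ddit3, which encodes CHOP, was at 42, 46.3 and 49.4 scaled CPM against 14.1, 11.5 and 9.41 (1.90, SE 0.26), and Atf3, a stress-induced factor, was at 31.9, 39.3 and 43.5 against 5.09, 4.85 and 6.86 (2.57, SE 0.3). Both were above all 12 control libraries. The mitochondrial folate gene Aldh1l2 was at 8.52, 5.31 and 3.91 against 36.2, 38.3 and 36.2 scaled CPM, and Aldh18a1, of proline synthesis, was at 21.6, 18.6 and 23.3 against 85.5, 81.5 and 82.1.

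Signalling genes of the muscle progenitor were mostly lower. In the Notch pathway, which keeps progenitors undifferentiated, 7 of 13 were lower and 2 higher, with a median of -0.63. The receptor gene Notch3 was at 10.9, 10.6 and 13.2 scaled CPM against 204, 185 and 224 (-4.03, SE 0.12, adjusted p 2.4e-23), below all controls, while Notch2 (0.18, interval -0.08 to 0.43) and Notch1 (0.28, interval -0.01 to 0.58) were not called. The ligand gene Jag1 was higher, at 17.3, 14.3 and 17.5 against 5.38, 4.39 and 4.64 scaled CPM. Rbpj, named after its value was seen, was the other higher member (1.05). The target genes Heyl (-2.77) and Hey1 (-1.70) were lower. Leaving out replicate 3 of 5 µM day 4 made the Notch1 difference a call (0.43, adjusted p 0.024).

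Quiescent satellite cell genes were lower in 12 of 18 cases and higher in 4, with a median of -0.68. The higher members were Myf5 (1.11) and Cxcr4 (0.36), with Sdc4 (0.82) and Gas6 (1.64) named after their values were seen. The Gas6 call was near the threshold, with an adjusted p of 0.04 in the limma fit against 8.6e-09 for Sdc4. The higher count was 2 without replicate 2 of 5 µM day 4 and also 2 without replicate 3 of control day 2. Cxcr4 was among the calls lost in both. Under plain CPM the higher count was 3. Vcam1, an adhesion gene, was at 39.2, 44.5 and 44.2 scaled CPM against 234, 242 and 227 (-2.43, SE 0.11). Fgfr4, the growth factor receptor of myoblasts, was at 1.69, 0.966 and 2.86 against 26.3, 26.5 and 32.1 scaled CPM (-3.41, SE 0.26). Of the insulin-like growth factor axis 11 of 15 were lower and 3 higher, with a median of -1.13. Igf1 was at 0.282, 1.5 and 0.175 against 9.53, 11.5 and 9.03 scaled CPM, and Igfbp4, a binding protein, at 7.01, 7.68 and 3.62 against 56.4, 54.4 and 57.6. The receptor gene Igf1r was lower by -0.56, within 2-fold, and the substrate gene Irs2, named after its value was seen, was higher at 1.80. Of the Id factors and the TGF-beta family 10 of 18 were lower and 2 higher, with a median of -0.61. Id1, an inhibitor of bHLH factors, was at 9.7, 5.84 and 9.63 against 17.7, 15 and 17.5 scaled CPM (-0.94, SE 0.21), and Id3 was lower at -1.39. Tgfb1 was not called (0.07, interval -0.17 to 0.32).

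Genes of proteolysis and autophagy were higher in 14 of 24 cases and lower in 3, with a median of 0.42 and 11 above all controls. Fbxo32, the muscle ubiquitin ligase atrogin-1, was at 301, 272 and 295 scaled CPM against 125, 134 and 124 (1.17, SE 0.13, adjusted p 1.9e-09). Gabarapl1, an autophagosome protein gene, was at 238, 312 and 301 against 107, 93.6 and 97.2 scaled CPM. Capn3, muscle calpain, was lower, at 3.58, 3.43 and 6.48 against 12.8, 16.3 and 17.6 scaled CPM. Foxo1 was not called (-0.05, interval -0.41 to 0.31).

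Mitochondrial transcripts were moderately higher. Of 13 tested genes of the mitochondrial genome 11 were higher and none lower, with a median of 0.73. Scaled to reads outside these genes the count was again 11, with a median of 0.70, and under quantile normalization it was 8, with a median of 0.31. Control cells rose in this list by a median of 0.48 from day 2 to day 4, and the median against control day 4 was 0.27. The complex I gene mt-Nd2 was at 6246, 6064 and 6764 scaled CPM against 3120, 3390 and 2760 (1.04, SE 0.13). The gene mt-Nd6, on the other strand, was not called, at 53.3, 77.4 and 74.5 against 87.1, 67.5 and 79.5 scaled CPM. Of 34 nuclear genes of the respiratory chain 21 were higher and 3 lower, with a median of 0.38 and 33 within 2-fold. Their median was 0.03 against control day 4, and control cells rose by a median of 0.25 from day 2 to day 4. Sdhd, a subunit of complex II, was at 268, 317 and 329 against 170, 172 and 173 scaled CPM, and Sdha, another of its subunits, was not called (-0.05, interval -0.23 to 0.12).

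Most cytosolic ribosomal protein genes were within 2-fold of control day 2. Of 61 genes 60 were within 2-fold, 43 were not called, 7 were higher and 11 lower, with a median of -0.04 (-0.14 under plain CPM). The lower count was 19 under plain CPM, 17 under CPM of reads outside mitochondrial genes, 20 under quantile normalization and 17 in a fit of the 6 libraries alone, and it was 5 without replicate 1 of 5 µM day 4 and 7 without replicate 3 of control day 2. The higher count was 4 without replicate 3 of 5 µM day 4. Rpl8 was at 927, 1078 and 963 scaled CPM against 1009, 930 and 1026 (0.00, interval -0.22 to 0.22), and the largest difference among the named members was that of Rps21, at 294, 358 and 370 against 508, 497 and 500 (-0.56). Rps12, named after its value was seen, had the largest difference of all members (-1.40, SE 1.2) and was not called. Many of these genes have processed pseudogenes, and reads shared with them are uncertain. In ribosome biogenesis 13 of 25 genes were higher and none lower, with a median of 0.34, and Gnl3, nucleostemin, was at 88.2, 100 and 97.8 against 41.8, 48.5 and 45.7 scaled CPM (1.06, SE 0.14). Under plain CPM 2 members of that list were called lower. The median of that list was 0.05 against control day 4, and the control change from day 2 to day 4 had a median of 0.31.

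Metabolic lists showed smaller shifts. Of 21 genes of glycolysis and the hypoxia response 9 were higher and 2 lower (background 25.6% higher and 27.6% lower), with a median of 0.11. Ldha, lactate dehydrogenase A, was at 1247, 1372 and 1342 scaled CPM against 725, 707 and 725 (0.87, SE 0.09). The lactate exporter gene Slc16a3 was lower, at 8.52, 9.9 and 7.36 against 20.3, 18.4 and 18.4 scaled CPM, and Gpi1 was not called (0.06, interval -0.10 to 0.21). Of 29 genes of sterol and fatty acid synthesis 15 were lower and 5 higher, with a median of -0.42, and the higher count was 3 under plain CPM and quantile normalization. Acaca, acetyl-CoA carboxylase, was at 27.9, 22.7 and 20.9 against 91.3, 98.1 and 88.8 scaled CPM (-1.92, SE 0.23), and Scd2, the desaturase, was not called, at 2664, 2510 and 2675 against 2649, 2767 and 2655. Of 19 immediate early genes 9 were higher and 4 lower, with a median of 0.30, and the lower count was 2 without replicate 3 of 5 µM day 4 and under quantile normalization. Jund was at 260, 307 and 282 against 127, 105 and 161 scaled CPM, and Egr1 was at 39.8, 29 and 36.3 against 105, 104 and 112 (-1.60, SE 0.11).

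**Figure D5:**
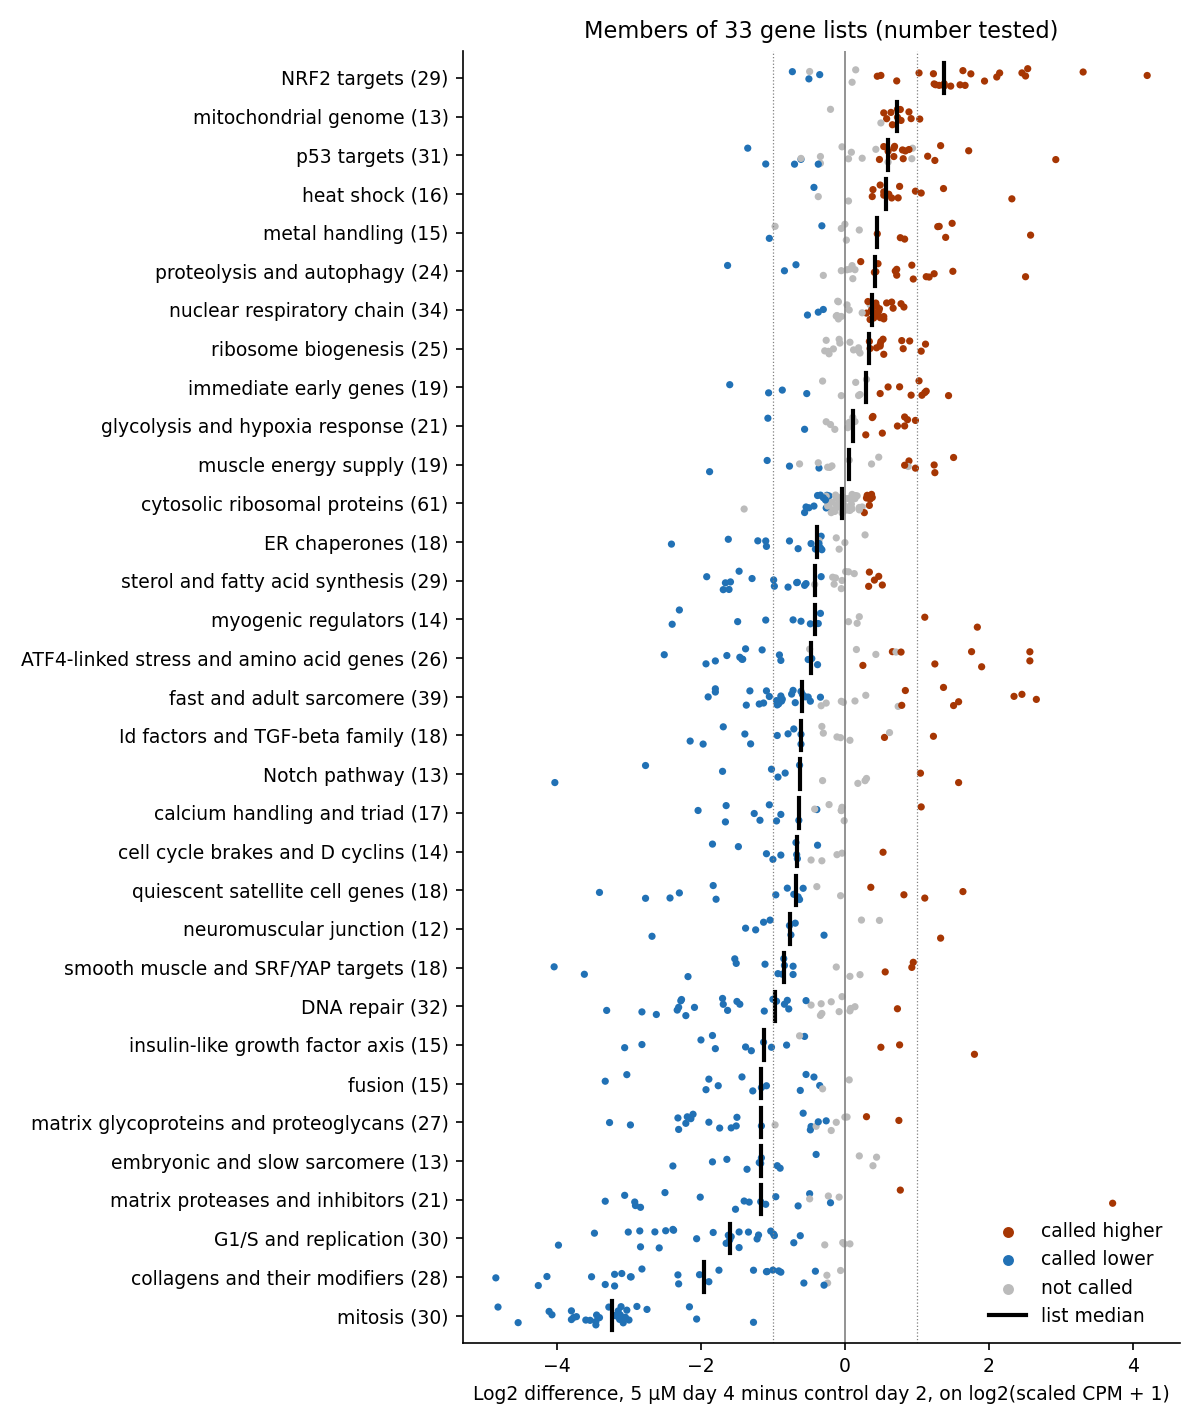
Log2 difference of 5 µM day 4 minus control day 2 on log2(scaled CPM + 1) (horizontal axis) for the tested members of 33 gene lists, sorted by median; each point is 1 gene, coloured by call, black bars are medians and dotted lines mark 2-fold. Medians run from -3.24 for mitosis to 1.38 for NRF2 targets, and the cytosolic ribosomal proteins sit near 0.

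Over all tested genes, the 8 largest rises over control day 2 were Cd24a (5.44), Clec3b (4.22), Aldh3a1 (4.20), Smtnl1 (4.05), Snhg4 (4.00), Ppp1r3a (3.76), Mmp3 (3.72) and Rab26os (3.48). Cd24a, a small cell surface sialoglycoprotein gene, was at 111, 112 and 124 scaled CPM against 1.52, 1.65 and 1.92. Its control means were 30.4 at day 0 and 43.4 at day 4, both above its control day 2 values. Clec3b, the tetranectin gene, was at 27.3, 26.1 and 20.5 against 0.164, 0.183 and 0.836 scaled CPM, and no control group had a mean above 0.918. Smtnl1, a smoothelin-like gene of muscle, was at 15.6, 25 and 14.5 against 0.411, 0 and 0.0418 scaled CPM. Ppp1r3a, the muscle glycogen-targeting subunit of protein phosphatase 1, was at 17.1, 11.2 and 15.6 against 0, 0.411 and 0.0418 scaled CPM, near its control day 4 mean of 11.9. Rab26os is named as an antisense gene, and whether the counting used strand is not given in the sources used here, so its reads cannot be told apart from those of its partner. Tppp3, a tubulin-binding protein gene, was among the genes farthest above all controls, at 1066, 1254 and 1099 against 112, 105 and 124 scaled CPM, and so was the chemokine gene Cxcl13, at 20.5, 18.9 and 28.1 against 2.18, 2.33 and 1.38.

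The 8 largest falls under control day 2 were Ptn (-5.10), Mest (-5.10), Col6a1 (-4.85), Top2a (-4.82), 2810417H13Rik (-4.79), Ccna2 (-4.54), Fndc1 (-4.28) and Col6a2 (-4.26). Ptn, the secreted growth factor pleiotrophin, was at 0.612, 0.435 and 0.292 scaled CPM against 49.2, 48.6 and 47.3, and below all controls. Mest, an imprinted gene of mesoderm, was at 9.89, 11.1 and 10.9 against 379, 421 and 390 scaled CPM, close to its control day 0 mean of 9.52. Fndc1, a fibronectin-domain gene, was at 7.81, 4.73 and 4.85 against 121, 128 and 136 scaled CPM and between its control day 0 and day 1 means of 1.43 and 72.4. The genes farthest below all controls were Ccna2, Top2a, 2810417H13Rik (a PCNA-associated factor), Pbk (a mitotic kinase), Diaph3 (a formin) and Fam64a, and Pbk was at 0.282, 1.06 and 0.992 against 33.8, 30.6 and 30.7 scaled CPM.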

How the data were processed

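Each of the 30 C2C12 libraries was an Illumina TruSeq RNA library of TRIzol-extracted total RNA, per the labels' protocols. The authors deposited 1 table of 48709 genes, whose header names the values CPM; they are treated here as a signal scaled by the authors, since column sums differ between libraries. For aligner, build, counting and scaling, none is named: not given in the sources used here. Within each column the values were whole multiples of 1 read's value (100% within 0.02 reads), and reads recovered this way totalled 18.46 to 26.95 M per library. All columns were matched to samples by their labels.

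The 12946 genes that reached 1 scaled CPM in 3 or more libraries were fitted with limma 3.58.1 in R 4.3.3 on log2(scaled CPM + 1), with 1 mean for each of the 10 groups, a variance trend, 20 residual degrees of freedom and Benjamini-Hochberg adjustment over all genes. A gene is called at an adjusted p under 0.05 and alike within 2-fold where its 95% interval lies within 2-fold. The recovered reads were also tested with edgeR 4.0.16 (quasi-likelihood) and DESeq2 1.42.0. The fit was tested on simulated data. Replicates of a group differed by more than sampling noise (chi-square per degree of freedom 9.53 to 19.07) and none were merged.

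Of 786 entries in 33 gene lists, 783 were in the table and 754 passed the filter; Fth1 and Ltbp4 were not matched. The members and lists were chosen with earlier results of these data known. Named genes are 31 key genes, the 8 largest rises and 8 largest falls with a mean of at least 5 scaled CPM and no overlap, up to 4 called and 2 alike members of each list, and the 6 genes farthest above and below all controls. Alternatives were other filters, pseudocounts, scalings, fits and left-out replicates.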

Additional observations from a re-analysis of the deposited data

Results flagged for a closer look

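The change from day 2 to day 4 at 5 µM was set against the change over the same days in control cells, as an interaction term of the limma fit with Benjamini-Hochberg adjustment, for the 31 key genes. It passed for 15 of them, and for 3074 of the 12946 tested genes. All values are log2 differences, 5 µM change minus control change. Among muscle genes the 5 µM change was the lower for Myod1 (-0.78), Myh3 (-0.81, with changes of 0.02 at 5 µM and 0.83 in control) and Pax7 (-1.37). Among cell-cycle genes it was the lower for Cdkn1c (-2.50, with -0.44 against 2.06) and Ccna2 (-1.32). Among matrix and cytoskeletal genes it was the lower for Col1a1 (-3.96, with -2.34 against 1.62) and Tagln (-2.60, with -1.38 against 1.22). The chaperone gene Hspa5 differed by -0.33. The 5 µM change was the higher for the stress genes Gstm1 (3.10), Ddit3 (3.02), Mt2 (2.64), Nqo1 (2.46), Mt1 (1.86) and Hmox1 (1.35), and for the ubiquitin ligase gene Fbxo32 (0.92). The term did not pass for Myog (-0.36, adjusted p 0.16), Acta1 (0.11, 0.61), Myh1 (-0.38, 0.43), Ckm (0.10, 0.74) or Mdm2 (0.22, 0.28).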

How the results depend on the processing

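No named gene changed direction among calls in the 20 alternatives, and 160 of 166 called named genes stayed called in every alternative that tested them. With a pseudocount of 5 the genes higher by 2-fold or more numbered 460 and those lower 972. Genes alike within 2-fold numbered 13033 with no filter on low values, 2816 with a bound of 1.5-fold and 5959 with DESeq2, and edgeR gives no interval for it. With a pseudocount of 0.1 they numbered 5955 and with a pseudocount of 5 they numbered 10041. The count of called genes was 6526 with edgeR, 6664 with DESeq2, 7533 in a fit of the 6 libraries alone, and 6252 to 6409 when 1 replicate of either group was left out. The replicate numbers do not pair the samples (correlations of same-numbered deviations -0.005, -0.022 and -0.022), and a replicate block gave 6887 called genes and changed no call of a named gene. Of these 166, the calls of Plod1, Timp3, Slc3a2, Cxcr4, Ero1l and Pgam2 were lost in at least 1 alternative. Genes named outside the stated rules are not in that count. Among them the calls of Dcn, Ache, Myoz1 and Mybpc2 were lost with edgeR, as given above. With 3 libraries a group, levels near that of 1 read (0.0411 to 0.0584 scaled CPM) are not told from 0.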
